A study of Mus musculus with 9 samples.

Results

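The synaptonemal complex and the meiotic cohesin genes were followed in mouse embryonic stem cells (ESCs) that carry mutations of *Rbbp4*, which encodes a histone-binding subunit shared by several chromatin complexes. The genes were chosen by name from the count tables, with earlier results of these data known. They were *Sycp1*, *Sycp2*, *Sycp3*, *Syce1*, and *Syce2* of the synaptonemal complex, and *Smc1b*, *Stag3*, and *Rec8* of meiotic cohesin. *Hormad1* and *Hormad2* of the chromosome axis completed the list. The list holds 10 of 25239 gene symbols, and all 10 were among the 14125 symbols with enough reads to be tested. The control was the E14 ESC line, of the strain given in the labels as 12910la, with the genotype Rbbp4+/+. The Rbbp4 Ins/Ins line carries a small insertion on both alleles, and the Rbbp4 Ins/Del line carries an insertion on 1 allele and a deletion on the other. Each mutant line is a colony isolated after CRISPR-Cas9 editing of E14 cells, so what is particular to a colony and what its genotype does cannot be told apart. All lines grew in serum medium with leukemia inhibitory factor, and 3 RNA-seq libraries were made of each, 9 in all. The labels do not say that the 3 libraries of a line came from separate cultures, so the p-values measure the spread between these libraries, which may be technical.

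In meiosis, each chromosome folds into loops along an axis built on cohesin rings, and the synaptonemal complex then zips the axes of homologous chromosomes together. The ring holds a pair of SMC proteins, a kleisin that closes it, and a STAG subunit, and germ cells replace several of these with meiotic paralogs. SYCP2 and SYCP3 lie along the axes, SYCP1 spans the gap between them, and SYCE1 and SYCE2 join SYCP1 molecules in the middle, while the HORMA domain proteins mark axes that have not yet paired. ESCs divide by mitosis, and many germ cell genes of this kind are held at low levels in them by promoter methylation and Polycomb complexes.

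Library totals lay between 15838064 and 21366868 counted reads. *Rbbp4* itself had normalized counts of 9932, 9965, and 10117 in the control and of 5485, 5551, and 5776 in Ins/Ins, and its counts in Ins/Del, at 10129, 10344, and 10603, were above all control libraries by a fold of 1.04 on average, which did not pass the threshold (adjusted p = 0.107, edgeR). A normalized count is a read count scaled to the mean library size. The counts are per gene and do not read the edited alleles. ESC markers such as *Pou5f1* and *Nanog* were abundant in every line. Over 10 markers, the summed level was 5450 to 5710 CPM in the control, 6750 to 6850 in Ins/Ins, and 6740 to 6890 in Ins/Del. CPM are counts scaled to the library total multiplied by edgeR's TMM factor, which lay between 0.993 and 1.02.

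The 10 genes moved in opposite directions, and they did so alike in both mutants. *Hormad1*, *Hormad2*, *Smc1b*, *Stag3*, *Syce1*, and *Sycp1* rose, *Rec8*, *Sycp3*, and *Syce2* fell, and *Sycp2* did not pass the threshold in either mutant. The threshold was an adjusted p of 0.01 in edgeR's quasi-likelihood test over all tested genes. The 6 genes that rose stand against 29.0% of all tested genes called higher in Ins/Ins and 30.6% in Ins/Del, and the 3 that fell stand against 29.4% and 31.9% called lower. Calls of either direction covered 58.4% of tested genes in Ins/Ins and 62.5% in Ins/Del, so a call by itself sets these 9 genes little apart. Changes over 2-fold in both mutants were found for 5 of the 10 genes upward, against 6.58% of tested genes, and for 2 downward, against 8.10%. The median log2 fold change of the 10 genes was 0.73 in Ins/Ins and 0.91 in Ins/Del, beside 0.0038 and -0.011 over all tested genes. Since the 10 genes were chosen with earlier results of these data known, these shares and medians describe them and lend no independent support. Every Ins/Ins library was above every control library for 5 of the 10 genes and below for 4, against 34.9% and 34.2% of tested genes, and every Ins/Del library was above for 6 and below for 4, against 35.9% and 36.9%. Both comparisons use the same 3 control libraries, so a control library that stood apart would move both. Control replicate 2 stood furthest apart. Its chi-square per gene was 4.62 against replicate 1 and 3.89 against replicate 3. Control replicates 1 and 3 had 2.62, and pairs within a mutant line had 1.87 to 2.58. Without control replicate 2, 9 of the 10 genes were still called in each mutant.

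**Figure D1:**
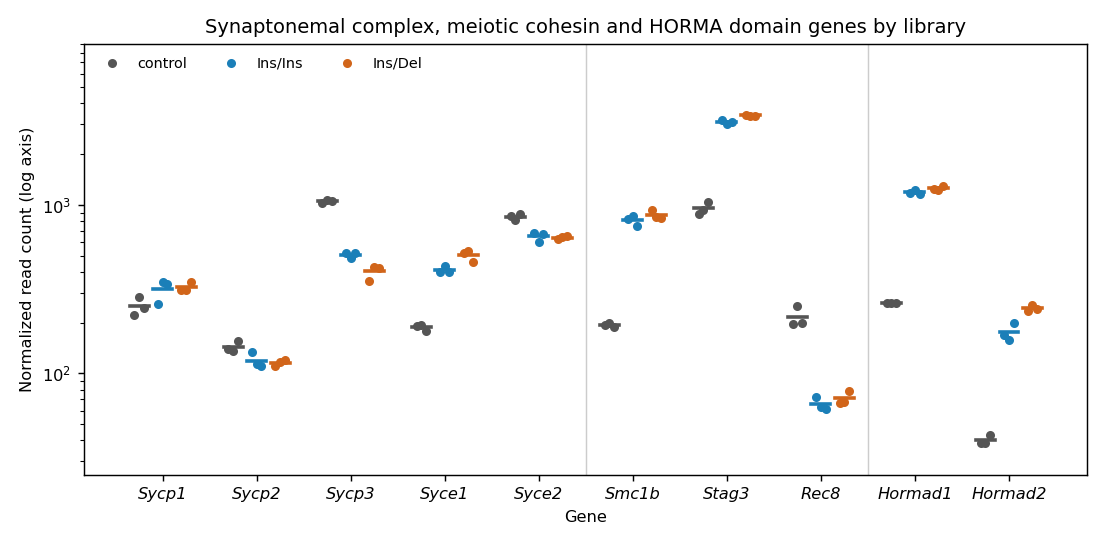
Normalized read counts of the 10 genes in each library, on a log axis, with 1 point per library, 3 libraries per line, and a bar at the mean of each line. The control points lie below the mutant points for *Syce1*, *Smc1b*, *Stag3*, *Hormad1*, and *Hormad2*, and above them for *Sycp3*, *Syce2*, *Rec8*, and *Sycp2*, while the Ins/Ins points of *Sycp1* overlap the control.

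*Sycp3* encodes the main structural protein of the axis and was the most abundant of the 10 genes per length of transcript in the control. It was read at 1027, 1061, and 1057 normalized counts in the control, at 521, 482, and 518 in Ins/Ins, and at 355, 430.4, and 423 in Ins/Del. The 3 lines did not overlap, with every Ins/Del library below every Ins/Ins library. *Sycp3* fell by 51.5% in Ins/Ins (log2 fold change -1.04 ± 0.059, SE; adjusted p = 1.52e-18, edgeR's quasi-likelihood test), and by 61.5% in Ins/Del (-1.38 ± 0.061; adjusted p = 5.98e-22, edgeR). GENCODE places the gene at chr10:88459569-88473236 of mm10, plus strand. Exons of *Chpt1*, a phospholipid synthesis gene on the opposite strand, cover 660 of its 1264 exonic bases, or 52.2%, and no other of the 10 genes shares exonic sequence with another gene. The strand setting of the read counting is not given in the sources used here, so reads from the shared part cannot be assigned with certainty. *Chpt1* was read at 179.5, 182, and 174 normalized counts in the control, 181, 169, and 203 in Ins/Ins, and 218, 185, and 230.3 in Ins/Del. Its log2 fold changes of 0.05 and 0.23 did not pass the threshold (adjusted p = 0.706 and 0.0401, edgeR), and they point the other way from those of *Sycp3*.

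The promoter of *Sycp3* is shown because it holds matches to both motifs searched, an E-box, CACGTG, and an E2F-type motif, GCGGGAA, which are described further on with the other promoters. The 250 bases before its RefSeq transcript start, on the plus strand of GRCm38.p6 (the mm10 build), read 5′ to 3′ as follows, with the motif matches in capitals, and the last 18 bases lie in the first exon of a GENCODE transcript of *Sycp3*.
Sycp3, chr10:88459337-88459586: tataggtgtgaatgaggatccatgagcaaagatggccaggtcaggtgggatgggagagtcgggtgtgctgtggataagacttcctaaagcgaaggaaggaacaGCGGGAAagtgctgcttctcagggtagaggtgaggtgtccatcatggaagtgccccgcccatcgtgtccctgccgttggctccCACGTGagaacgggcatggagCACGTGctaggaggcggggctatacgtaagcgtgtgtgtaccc

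*Sycp2*, which encodes the partner of SYCP3 on the axis, was read at 138, 136, and 156 normalized counts in the control, 133, 114, and 109.9 in Ins/Ins, and 110.4, 117, and 119 in Ins/Del. Every mutant library was below every control library, but the gaps were small beside the spread. The log2 fold change was -0.25 in Ins/Ins, with a 95% interval from -0.49 to -0.02 and an adjusted p of 0.0507 (edgeR), and -0.31 in Ins/Del, from -0.55 to -0.07, with an adjusted p of 0.0186 (edgeR). Neither passed the threshold, and both intervals lie well above the estimates of *Sycp3*. RPKM is CPM per kilobase of exonic length. The ratio of *Sycp3* to *Sycp2* RPKM went from a mean of 34.6 in the control, with libraries from 32.0 to 36.8, to 20.2 in Ins/Ins, from 18.4 to 22.2, and 16.4 in Ins/Del, from 15.2 to 17.3. The size of this ratio depends on whether reads from the part of *Sycp3* shared with *Chpt1* were counted.

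*Sycp1*, which encodes the transverse filament that bridges the paired axes, rose by 25.6% in Ins/Ins and by 30.5% in Ins/Del. Its libraries held 221, 284, and 243 normalized counts in the control, 259, 346, and 338 in Ins/Ins, and 314, 314, and 346 in Ins/Del. The lowest Ins/Ins library lies among the control libraries, while all Ins/Del libraries are above them. The log2 fold changes were 0.33 (adjusted p = 0.00317, edgeR) and 0.38 (adjusted p = 6.14e-04, edgeR). The call in Ins/Ins rests on single libraries: without control replicate 1, Ins/Ins replicate 2, or Ins/Ins replicate 3 the estimates were 0.24, 0.26, and 0.27, with adjusted p of 0.0415, 0.0339, and 0.0262 (edgeR), and the call in Ins/Del was lost without control replicate 1 (0.30, adjusted p = 0.0116, edgeR). With DESeq2 in place of edgeR the Ins/Ins estimate was again 0.33, with an adjusted p of 0.0136.

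The central element genes *Syce1* and *Syce2* moved apart. *Syce1* was read at 191, 194, and 178 normalized counts in the control, 399, 434, and 397 in Ins/Ins, and 519, 532, and 458 in Ins/Del. No library of one line reached those of another, and the order was control, Ins/Ins, Ins/Del. *Syce1* rose 2.18-fold in Ins/Ins (log2 fold change 1.13 ± 0.082, SE; adjusted p = 4.26e-15, edgeR) and 2.69-fold in Ins/Del (1.43 ± 0.080; adjusted p = 9.56e-19, edgeR). *Syce2* was read at 852, 816, and 882 normalized counts in the control, 681, 605, and 673 in Ins/Ins, and 623, 643, and 649 in Ins/Del, with every mutant library below the control and the mutants overlapping each other. It fell by 23.0% in Ins/Ins (log2 fold change -0.38 ± 0.055; adjusted p = 1.77e-07, edgeR) and by 24.9% in Ins/Del (-0.41 ± 0.056; adjusted p = 2.50e-08, edgeR). On the RPKM scale, the ratio of *Syce1* to *Syce2* was 0.298 in the control, 0.852 in Ins/Ins, and 1.06 in Ins/Del, so their levels per length were closer in the mutants. In Ins/Ins every library still had less *Syce1* than the lowest *Syce2* library, and in Ins/Del the libraries of *Syce1* and *Syce2* overlapped.

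Among the meiotic cohesin genes, *Smc1b* and *Stag3* rose and *Rec8* fell. *Smc1b*, the meiotic form of the SMC1 arm of the ring, was read at 192, 200.1, and 187 normalized counts in the control, 819, 858, and 749.5 in Ins/Ins, and 928, 843, and 840.0 in Ins/Del. All mutant libraries were far above the control, and the mutants overlapped. The rise was 4.18-fold in Ins/Ins (log2 fold change 2.06 ± 0.072, SE; adjusted p = 2.40e-25, edgeR) and 4.5-fold in Ins/Del (2.17 ± 0.071; adjusted p = 2.80e-26, edgeR). *Stag3*, the meiotic STAG subunit, was read at 883, 932, and 1037 normalized counts in the control, 3167, 3035, and 3101 in Ins/Ins, and 3410.3, 3387, and 3368 in Ins/Del. Its lines did not overlap, with Ins/Del above Ins/Ins by a small margin. It rose 3.27-fold in Ins/Ins (log2 fold change 1.71 ± 0.042; adjusted p = 2.63e-30, edgeR) and 3.58-fold in Ins/Del (1.84 ± 0.042; adjusted p = 1.49e-31, edgeR).

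*Rec8*, the meiotic kleisin that closes the ring, was read at 196, 251, and 198 normalized counts in the control, 72.7, 63.2, and 61.3 in Ins/Ins, and 66.4, 67.7, and 78.7 in Ins/Del. The mutants overlapped each other and were well below every control library. *Rec8* fell by 69.1% in Ins/Ins (log2 fold change -1.69 ± 0.13, SE; adjusted p = 1.68e-14, edgeR) and by 67.1% in Ins/Del (-1.60 ± 0.13; adjusted p = 5.32e-14, edgeR). It had the largest fall of the 10 genes in both mutants.

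The HORMA domain genes had the highest estimates of the 10, with intervals that overlapped that of *Smc1b* in Ins/Ins. In Ins/Del the interval of *Hormad1*, 2.134 to 2.365, again overlapped that of *Smc1b*, 2.026 to 2.314. The Ins/Del interval of *Hormad2*, 2.336 to 2.865, lay above that of *Smc1b*. *Hormad1* recruits the machinery that makes and watches over meiotic DNA breaks, and it was read at 262, 263, and 263 normalized counts in the control, 1181, 1227, and 1163 in Ins/Ins, and 1242, 1223, and 1284 in Ins/Del. The control libraries were close to one another, and the mutants overlapped. The rise was 4.53-fold in Ins/Ins (log2 fold change 2.18 ± 0.057, SE; adjusted p = 2.81e-29, edgeR) and 4.75-fold in Ins/Del (2.25 ± 0.057; adjusted p = 5.88e-30, edgeR). *Hormad2*, which acts in the surveillance of unpaired axes, was read at 38.5, 38.8, and 43.3 normalized counts in the control, 169, 158, and 198 in Ins/Ins, and 235, 254, and 241 in Ins/Del. The 3 lines did not overlap, although the control had the fewest reads of any of the 10 genes. *Hormad2* rose 4.36-fold in Ins/Ins (2.12 ± 0.14; adjusted p = 1.34e-16, edgeR) and 6.06-fold in Ins/Del (2.60 ± 0.13; adjusted p = 3.07e-20, edgeR).

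The promoter of *Hormad1*, the gene with the highest fold change of the 10 in Ins/Ins, is shown beside that of *Sycp3*, since both hold 2 E-boxes and 1 E2F-type motif although the genes moved in opposite directions. It lies on the plus strand of GRCm38.p6, and the motif matches are in capitals.
Hormad1, chr3:95559427-95559676: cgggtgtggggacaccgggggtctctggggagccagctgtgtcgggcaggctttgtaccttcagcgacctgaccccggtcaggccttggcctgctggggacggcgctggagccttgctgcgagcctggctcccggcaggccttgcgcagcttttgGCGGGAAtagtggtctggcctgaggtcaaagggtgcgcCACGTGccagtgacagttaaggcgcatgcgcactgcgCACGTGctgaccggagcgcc

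**Figure D2:**
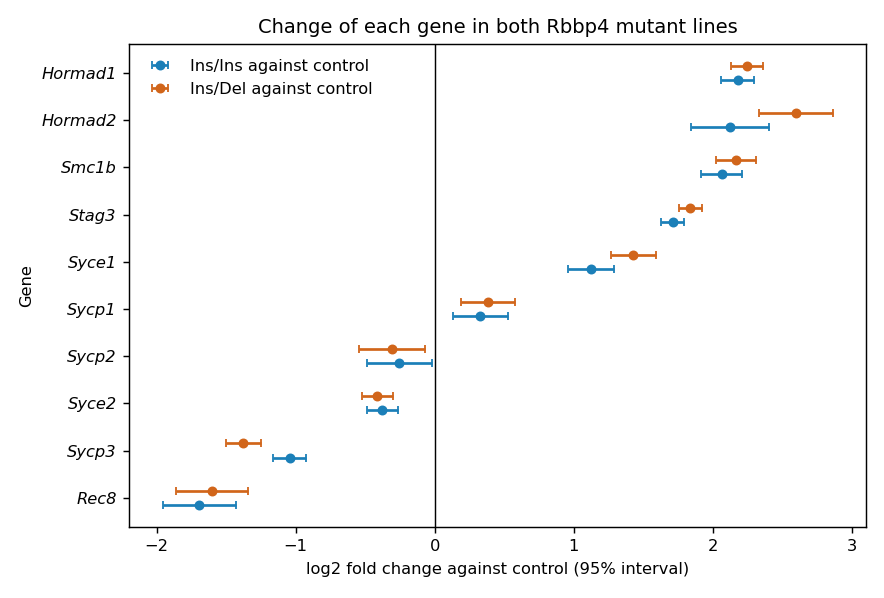
Log2 fold change of each of the 10 genes against the control in Ins/Ins and in Ins/Del, with 95% intervals from edgeR's quasi-likelihood fit of 9 libraries and genes ordered by the Ins/Ins estimate. *Hormad1*, *Hormad2*, *Smc1b*, *Stag3*, and *Syce1* lie above 1 in both mutants, *Rec8* and *Sycp3* lie below -1, and *Sycp1*, *Sycp2*, and *Syce2* lie between -0.41 and 0.38.

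In terms of level per length, the order of the genes differed between the control and the mutant lines. In the control, *Sycp3* led with 45.5 ± 0.811 RPKM (SD, n = 3), followed by *Syce2* with 23.7 ± 0.926, *Stag3* with 9.09 ± 0.753, *Hormad1* with 8.33 ± 0.026, and *Syce1* with 7.04 ± 0.323. Below these came *Rec8* at 4.02 RPKM and *Sycp1* at 3.84 RPKM, whose libraries overlapped, then *Smc1b* at 2.62, *Sycp2* at 1.32, and *Hormad2* at 0.806. The 2 genes that led the control were thus 2 of those that fell.

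In Ins/Ins the order was *Hormad1* at 37.7 ± 1.04 RPKM (SD, n = 3), *Stag3* at 29.7 ± 0.631, *Sycp3* at 22.0 ± 0.944, *Syce2* at 18.2 ± 1.17, *Syce1* at 15.4 ± 0.781, *Smc1b* at 11.0 ± 0.742, *Sycp1* at 4.85 ± 0.743, and *Hormad2* at 3.51 ± 0.41. *Rec8*, at 1.23 RPKM, and *Sycp2*, at 1.09, came last and overlapped. In Ins/Del, *Hormad1* at 39.6 RPKM and *Stag3* at 32.4 again led, and *Syce1* at 18.9, *Syce2* at 17.8, and *Sycp3* at 17.5 overlapped in their libraries. *Smc1b* followed at 11.8 RPKM, *Sycp1* at 5.01 overlapped with *Hormad2* at 4.88, and *Rec8* at 1.33 and *Sycp2* at 1.06 were again lowest. The ratio of *Sycp3* to *Hormad1* RPKM, the leading genes of the control and of the mutants, was 5.46 in the control, with libraries from 5.37 to 5.52, 0.583 in Ins/Ins, from 0.537 to 0.609, and 0.441 in Ins/Del, from 0.391 to 0.482. The RPKM of *Sycp3* divides by all 1264 exonic bases, 660 of them shared with *Chpt1*. If reads from the shared part were not counted, this RPKM is too low. The place of *Sycp3* in the order of the mutants, and the size of its ratios, thus depend on the unknown strand setting.

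The meiotic cohesin subunits were then set against the mitotic paralogs that fill the same position in the ring. For the SMC1 position, *Smc1b* made up 5.22%, 5.51%, and 5.01% of the summed RPKM of *Smc1a* and *Smc1b* in the control, 17.0%, 17.4%, and 15.2% in Ins/Ins, and 19.3%, 17.9%, and 18.1% in Ins/Del. *Smc1a* itself averaged 4979 ± 88.5 normalized counts (control, SD, n = 3), 5820.2 ± 124 in Ins/Ins, and 5488 ± 53.5 in Ins/Del. It rose by 0.23 and 0.14 on the log2 scale (adjusted p = 1.50e-08 and 6.04e-05, edgeR), which is far less than *Smc1b*. *Smc3*, which has no meiotic paralog and pairs with either SMC1 form, averaged 7615 ± 150 normalized counts in the control, 7738 ± 116 in Ins/Ins, and 7746 ± 182 in Ins/Del. Its log2 fold changes were 0.02 in each mutant (adjusted p = 0.489 and 0.454, edgeR), with 95% intervals of -0.035 to 0.08 in Ins/Ins and -0.033 to 0.082 in Ins/Del.

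At the STAG position, *Stag3* made up 16.9%, 19.1%, and 19.4% of the summed RPKM of *Stag1*, *Stag2*, and *Stag3* in the control, 55.0%, 52.5%, and 55.3% in Ins/Ins, and 56.3%, 56.7%, and 57.0% in Ins/Del. The control and mutant libraries are far apart, and in both mutants the meiotic subunit held more of the RPKM than its mitotic paralogs together. That majority depends on the division by exonic length, which is largest for *Stag1*: of the raw counts at this position, *Stag3* made up 12.3% in the control, 41.7% in Ins/Ins, and 44.3% in Ins/Del on average. Its mitotic paralogs fell: *Stag2* went from 4365 ± 262 normalized counts (SD, n = 3) to 2438 ± 58.4 in Ins/Ins and 2531 ± 21.5 in Ins/Del, and *Stag1* from 2433 ± 73.7 to 1902 ± 172 and 1726 ± 108. The log2 fold changes of *Stag2* were -0.84 and -0.79 (adjusted p = 2.52e-22 and 1.67e-21, edgeR), and those of *Stag1* were -0.36 and -0.49 (adjusted p = 9.11e-09 and 3.54e-12, edgeR). The ratio of *Stag3* to *Stag2* RPKM went from 0.315 in the control to 1.84 in Ins/Ins and 1.93 in Ins/Del.

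The kleisin position went the other way. *Rec8* made up 3.32%, 4.39%, and 3.27% of the summed RPKM of *Rec8*, *Rad21*, and *Rad21l* in the control, 1.34%, 1.09%, and 1.08% in Ins/Ins, and 1.11%, 1.10%, and 1.32% in Ins/Del. *Rec8* lies on chromosome 14, whose other tested genes had median log2 fold changes of -0.57 in Ins/Ins and -0.60 in Ins/Del. *Rad21* lies on chromosome 15. The part of the level of chromosome 14 in the *Rec8* share was not tested. *Rad21*, the mitotic kleisin, averaged 8169 ± 278 normalized counts (control, SD, n = 3), 8020.1 ± 250 in Ins/Ins, and 8607 ± 141 in Ins/Del, and neither log2 fold change, -0.03 and 0.08, passed the threshold (adjusted p = 0.427 and 0.0227, edgeR). *Rad21l*, the other meiotic kleisin, had no more than 9.4 normalized counts in any library and was too low to be tested. For every position, the shares of the 3 libraries of each mutant were separate from those of the control, and an exact permutation test of 3 against 3 libraries, two-sided, gave p = 0.1 in all 6 cases, which is the smallest p this design allows. Between the mutants the exact p was 0.1 for *Smc1b* and *Stag3* and 0.9 for *Rec8*. In bulk RNA, fewer cells with a transcript and less of it per cell cannot be told apart, so the shares do not say which rings a cell could form.

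**Figure D3:**
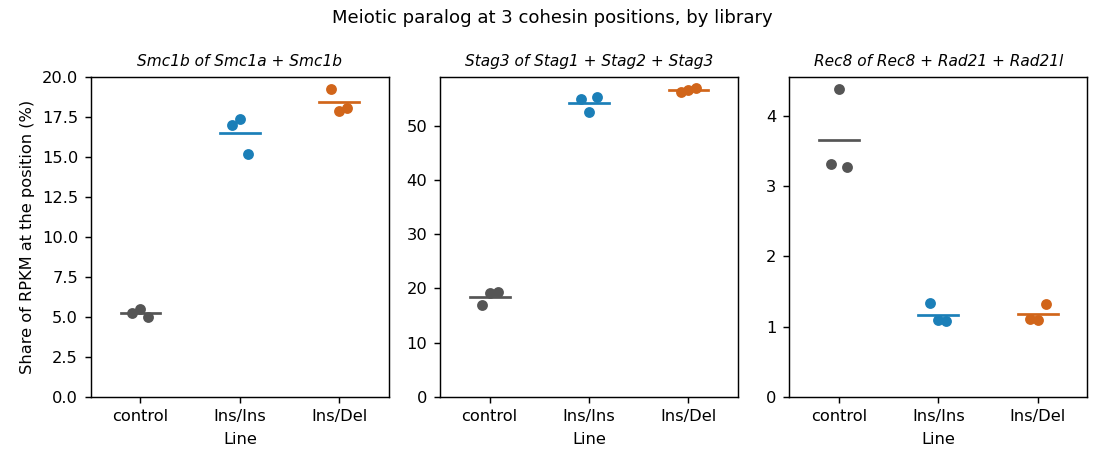
Share of the meiotic paralog in the summed RPKM of its cohesin position, in percent, with 1 point per library, 3 libraries per line, and a bar at the mean. *Smc1b* went from a mean of 5.24% to 16.5% and 18.4%, *Stag3* from 18.4% to 54.3% and 56.6%, and *Rec8* from 3.66% to 1.17% in both mutants, and each panel has its own axis from 0.

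Of the wider mitotic cohesin list of 17 genes, which holds these paralogs with the loader, the release factors, the acetyltransferases, and separase, 2 were called higher and 7 lower in Ins/Ins and 2 higher and 8 lower in Ins/Del, and none passed 2-fold in both mutants. These 9 and 10 calls of 17 are close to the 58.4% and 62.5% of all tested genes called, so the counts say little about the list. The median log2 fold change of this list was -0.05 in each mutant. The largest falls besides *Stag2* and *Stag1* belonged to *Pttg1*, the securin gene, at -0.93 and -0.82 (adjusted p = 1.70e-15 and 4.43e-14, edgeR), and *Esco2*, a cohesin acetyltransferase gene, at -0.44 and -0.52 (adjusted p = 3.88e-13 and 4.52e-15, edgeR), both named after their values were seen. *Sgo2a*, which encodes the protector of centromeric cohesin in meiosis, had log2 fold changes of 0.07 and -0.02 (adjusted p = 0.0715 and 0.602, edgeR).

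A further list holds 3 more central element genes, *Tex12*, *Syce3*, and *4930447C04Rik* (*Six6os1*), with 6 genes of meiotic chromosomes that act in recombination or its surveillance or in synapsis. Of the central element genes, *Tex12* and *4930447C04Rik* rose in both mutants and *Syce3* did not pass the threshold. Over all 9 genes, 7 were called higher and 0 lower in each mutant, beside 29.0% and 30.6% of all tested genes called higher, with median log2 fold changes of 1.07 in Ins/Ins and 1.16 in Ins/Del. *Tex12*, which encodes the partner of SYCE2 in the central element, was near 0 in the control, with 0 to 4.33 normalized counts, and had 12.8 to 27.1 in Ins/Ins and 18.5 to 21.5 in Ins/Del (adjusted p = 4.57e-07 and 6.47e-07, edgeR). *Fkbp6*, needed for synapsis and for silencing of transposons in male germ cells, rose by 3.71 and 3.97 on the log2 scale (adjusted p = 1.05e-28 and 3.45e-30, edgeR), more than any of the 10 genes. *Tex11*, a meiotic crossover gene on the X chromosome, rose by 1.39 and 1.80, and the recombinase-loading partners *Hsf2bp* and *4930432K21Rik* (also called *Brme1*) rose by 1.07 and 1.16 and by 1.50 and 1.69. *Tex15* and *4930447C04Rik* rose by less than 2-fold, and *Trip13* did not pass the threshold. *Syce3* had log2 fold changes of -0.51 and -0.91 (adjusted p = 0.139 and 0.0130, edgeR).

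Of 20 tested recombination genes among 25 listed, 8 were called higher and 1 lower in Ins/Ins and 9 higher and 0 lower in Ins/Del, with medians of 0.31 and 0.43 on the log2 scale. The 9 calls in each mutant are a lower share than the 58.4% and 62.5% of all tested genes called. Changes over 2-fold in both mutants were limited to *Rec114*, a cofactor of meiotic break formation, at 2.72 and 2.89 (adjusted p = 8.61e-23 and 5.55e-24, edgeR), and *Prdm9*, which sets recombination hotspots, at 1.09 and 1.04 (adjusted p = 4.10e-05 and 8.69e-05, edgeR), and these 2 of 20 genes stand beside 6.58% of all tested genes. *Spo11*, the gene of the enzyme that makes the breaks, and *Gm960*, *Meiob*, *Mcmdc2*, and *Rnf212* were too low to be tested. Of 6 genes that tie telomeres to the nuclear envelope in meiosis, 4 were called higher in Ins/Ins and 6 in Ins/Del, beside 29.0% and 30.6% of all tested genes, and *Terb2* (1.61 and 1.84) and *Majin* (1.48 and 1.40) passed 2-fold in both.

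Of 9 tested regulators of meiotic entry among 10 listed, 4 were called higher and 2 lower in Ins/Ins and 5 higher and 1 lower in Ins/Del, so that 6 were called in each mutant, a share close to the 58.4% and 62.5% of all tested genes. Over 2-fold in both mutants, 4 were higher and 1 lower, beside 6.58% and 8.10% of all tested genes. *Stra8*, which starts the meiotic program in response to retinoic acid, rose by 2.14 and 2.22 on the log2 scale (adjusted p = 1.08e-21 and 1.77e-22, edgeR), and *Dazl*, a germ cell RNA-binding gene, by 1.44 and 1.78. *Sohlh2* rose by 2.69 and 2.94 and *Stk31* by 1.71 and 1.92. *Rbm46*, whose protein helps germ cells leave mitosis, fell by 1.46 and 1.83 on the log2 scale (adjusted p = 1.97e-07 and 4.37e-09, edgeR), so this list too holds members that moved apart.

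Markers of other cells moved with the mutant lines, and their part in the results for the 10 genes was not tested. All 8 markers of the 2-cell-like state that ESCs enter at times, led by *Zscan4* genes, were higher by over 2-fold in both mutants. Among all tested genes, 6.58% were higher to that extent. The sum of the 8 markers went from 67.7 to 68.8 CPM in the control to 167 to 174 in Ins/Ins and 240 to 251 in Ins/Del. Several of these belong to families of near-identical copies, whose reads the counting may have split or dropped. Of 10 germ cell markers, 6 were called higher and 2 lower in Ins/Ins and 3 higher and 2 lower in Ins/Del. Among all tested genes, 29.0% were called higher and 29.4% lower in Ins/Ins, and 30.6% and 31.9% in Ins/Del. The germ cell marker sums were 325 to 334 CPM in the control, 421 to 428 in Ins/Ins, and 360 to 376 in Ins/Del. Of these markers, *Tex101* alone passed 2-fold in both mutants (3.78 and 4.07). *Ddx4*, a defining germ cell gene, was not called, with log2 fold changes of -0.06 and 0.05 (adjusted p = 0.352 and 0.406, edgeR).

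Of 12 spermatocyte and spermatid markers, 3 could be tested, 2 of which rose in Ins/Ins and 3 in Ins/Del, and the sum went from 16.0 to 17.9 CPM in the control to 45.0 to 49.6 and 65.5 to 67.1. *Clgn* (1.60 and 2.08) and *Ldhc* (1.22 and 1.58) passed 2-fold in both, while the defining spermatid genes *Prm1* and *Prm2* had 0 reads in every library. That allows up to 3 reads per library, or 0.14 to 0.189 CPM by the library total without the TMM factor, and covers counting error only. Of 9 oocyte markers only *Zp3* could be tested, and it rose by 2.10 and 2.33, with sums of 2.81 to 2.97, 8.11 to 10.5, and 10.9 to 11.9 CPM. Of 5 tested fibroblast markers among 8, 2 were higher and 3 lower in each mutant, with *Col1a1*, *Col1a2*, and *Col3a1* lower by over 2-fold and *Thy1* higher, and sums of 48.3 to 52.6, 37.0 to 41.5, and 48.2 to 49.7 CPM. Of 7 tested primitive endoderm markers among 8, 2 were higher and 2 lower in Ins/Ins and 5 higher and 2 lower in Ins/Del, *Gata4* and *Dab2* being lower and *Sox7* higher by over 2-fold in both, with sums of 23.3 to 24.9, 15.4 to 19.8, and 22.5 to 24.6 CPM. Of the 10 ESC markers, 7 were called higher and 2 lower in Ins/Ins and 6 higher and 1 lower in Ins/Del, and none passed 2-fold in both. Beside the counts of these lists, 29.0% of all tested genes were called higher and 29.4% lower in Ins/Ins. In Ins/Del the shares were 30.6% and 31.9%. Over 2-fold in both mutants, 6.58% of all tested genes were higher and 8.10% lower. With lists this short and calls this common, the counts are a description only.

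The fall of *Rec8* stood in a stretch of chromosome 14 in which most genes fell. *Rec8* is annotated at chr14:55618037-55625395 of mm10, plus strand, and 26 other tested genes start within 500 kb of its start. Of these, 1 was called higher and 20 lower in Ins/Ins and 2 higher and 21 lower in Ins/Del, with median log2 fold changes of -0.74 and -0.88. The shares of all tested genes called higher and lower were 29.0% and 29.4% in Ins/Ins and 30.6% and 31.9% in Ins/Del. All 464 tested genes of chromosome 14 besides *Rec8*, these 26 among them, had medians of -0.57 and -0.60. Over 13649 genes on other chromosomes the medians were 0.01 and -0.0018. The log2 fold change of *Rec8* was lower than that of all but 4 of its neighbours in each mutant, and the lowest values belonged to *Psme1* (-2.06 and -2.25) and *Psme2* (-2.36 and -2.46), which encode proteasome activators. Around the other 9 genes, the medians of the neighbours lay between -0.18 and 0.18 in Ins/Ins and between -0.22 and 0.19 in Ins/Del. The part of the level of chromosome 14 in the fall of *Rec8* was not tested.

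**Figure D4:**
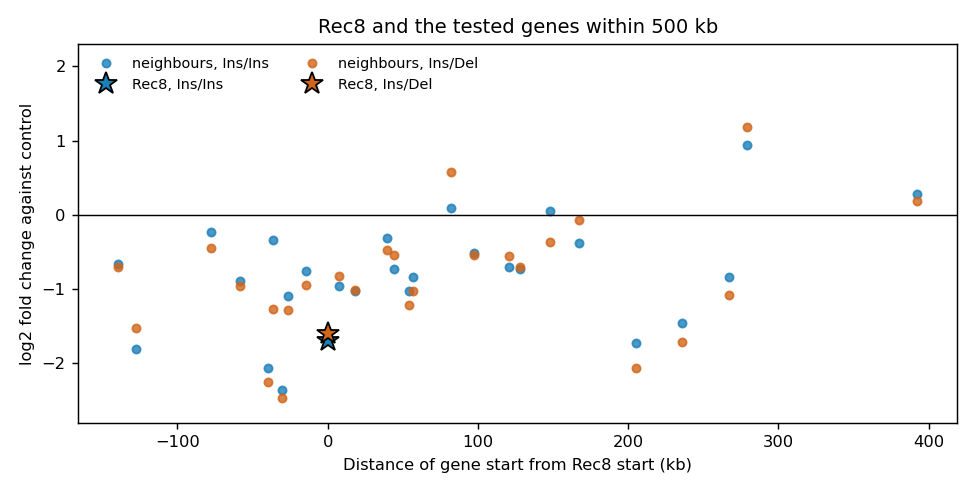
Log2 fold change against the control in Ins/Ins and Ins/Del of *Rec8* (stars) and of the 26 tested genes that start within 500 kb (points), by the distance of the gene start from that of *Rec8* in kb. Most points lie below 0, with medians of -0.74 and -0.88, and 4 of them lie below the star of each mutant.

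Set directly against each other, the mutants differed in 3 of the 10 genes. *Syce1* and *Hormad2* were higher and *Sycp3* was lower in Ins/Del than in Ins/Ins, where 6.17% of all tested genes were called higher, 4.64% lower, and 10.8% in either direction. Every Ins/Del library was above every Ins/Ins library for 3 of the 10 genes and below for 1, against 17.4% and 16.7% of tested genes. The differences on the log2 scale were 0.30 for *Syce1*, with a 95% interval from 0.16 to 0.44 (adjusted p = 0.00172, edgeR), 0.48 for *Hormad2*, from 0.28 to 0.68 (adjusted p = 4.63e-04, edgeR), and -0.33 for *Sycp3*, from -0.47 to -0.20 (adjusted p = 4.01e-04, edgeR). In each of the 3 genes Ins/Del lay further from the control than Ins/Ins did. *Stag3* had a difference of 0.13, from 0.05 to 0.20, that missed the threshold (adjusted p = 0.0110, edgeR). For the other genes the 95% intervals of the difference were -0.13 to 0.25 for *Sycp1*, -0.30 to 0.19 for *Sycp2*, -0.15 to 0.08 for *Syce2*, -0.01 to 0.22 for *Smc1b*, -0.23 to 0.42 for *Rec8*, and -0.02 to 0.16 for *Hormad1*, all of which include 0. The *Syce1* call was lost without Ins/Ins replicate 1 or 3 or without Ins/Del replicate 1 or 2 (adjusted p = 0.0139, 0.0120, 0.0140, and 0.0264, edgeR), and the *Sycp3* call was lost without Ins/Del replicate 1 (-0.25, adjusted p = 0.0123, edgeR).

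RefSeq promoters, the 250 bases before and 50 after a transcript start, were found for all 10 genes and searched on both strands for the motifs CACGTG and GCGGGAA, which share no stretch long enough to overlap as 1 match. As background, E-boxes of the first kind are bound by MAX and its partner MGA, and motifs of the second kind by E2F6, all subunits of a variant Polycomb complex known to silence meiotic genes in ESCs. CACGTG was found in the promoters of 5 of the 10 genes and in 7.15% of all 32851 promoters of the table, and GCGGGAA in 5 of the 10 and in 4.6% of all. Both were found in *Hormad1*, *Stag3*, *Sycp3*, and *Syce2*, against 0.457% of all promoters. Over the 11125 tested genes with a promoter, 11.8% held CACGTG, 9.9% GCGGGAA, and 0.944% both. Of the 4 genes with both motifs, *Hormad1* and *Stag3* rose and *Sycp3* and *Syce2* fell, and of the 4 with neither, *Hormad2* and *Syce1* rose, *Rec8* fell, and *Sycp2* did not pass the threshold. *Smc1b* held only GCGGGAA and *Sycp1* only CACGTG. Neither motif thus separated the genes that rose from those that fell, and absence says only that these letters are not in this window.

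The matches of the genes whose promoters are not printed above are given in windows of 30 bases, 5′ to 3′ in the direction of the gene, with the match in capitals and 12 bases before it. TTCCCGC is GCGGGAA read on the opposite strand.
Stag3 E-box, chr5:138280327-138280356, plus strand: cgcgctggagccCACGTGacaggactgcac
Stag3 E2F-type, chr5:138280494-138280523, plus strand: ttatcccgtgccTTCCCGCgtttttttcta
Smc1b E2F-type, chr15:85131988-85132017, minus strand: gaaaagaatttcTTCCCGCgcttttttttt
Sycp1 E-box, chr3:102936177-102936206, minus strand: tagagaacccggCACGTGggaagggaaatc
Syce2 E-box, chr8:84872158-84872187, plus strand: cgtttcattcagCACGTGctcggggcgggg
Syce2 E2F-type, chr8:84872212-84872241, plus strand: gagggcgctgagGCGGGAAaagacggaatg

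Counted in bases from the transcript start, the first base of the match lay at -170 for the E-box of *Stag3* and at -3 for its E2F-type motif, at -48 in *Smc1b*, at -94 in *Sycp1*, and at -88 and -34 from 1 of the 2 starts of *Syce2*. In *Sycp3* the matches began at -147, -64, and -43. In *Hormad1*, which has 2 annotated starts close together, they began at -95, -57, and -20 from the first. The promoters of the 10 genes held 10 to 33 CpG dinucleotides. By the highest count per gene, their median was 19.5, beside 22 over the tested genes with a promoter.

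**Figure D5:**
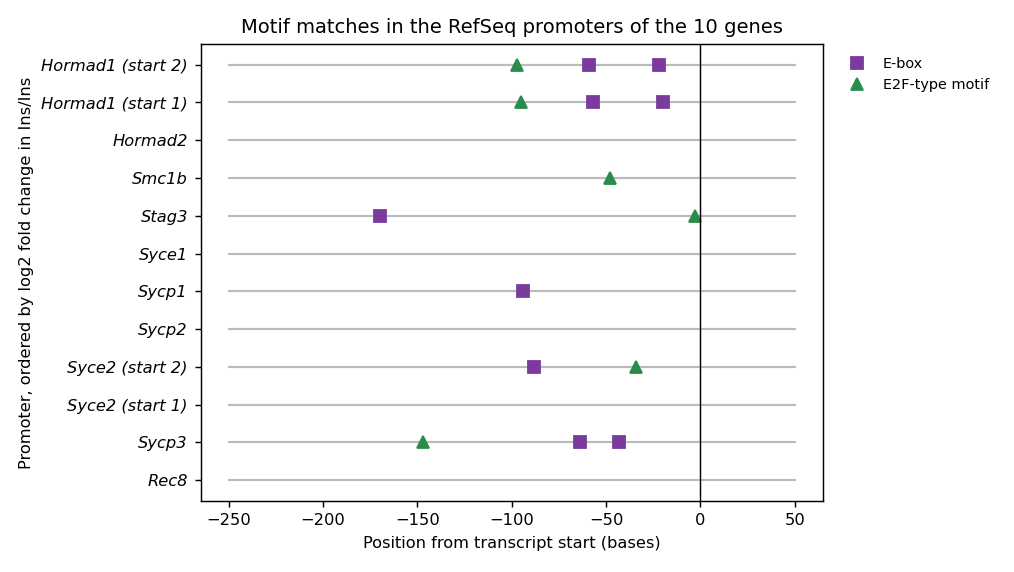
Position of each motif match, as the distance of its first base from the transcript start in bases, in the RefSeq promoters of the 10 genes, ordered by the log2 fold change in Ins/Ins with the highest on top. Squares are CACGTG and triangles GCGGGAA on either strand, grey lines are the searched windows, and matches occur both in genes that rose (*Hormad1*, *Stag3*, *Smc1b*, *Sycp1*) and in genes that fell (*Sycp3*, *Syce2*).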

How the data were processed

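The authors extracted total RNA, made poly(A) RNA-seq libraries with a Kapa mRNA kit, aligned paired-end reads to mm10 with STAR 2.7.3, and deposited HTSeq read counts per gene symbol, whole and not normalized. The submitters' processing notes also name DESeq2 1.22.2. The HTSeq version, annotation, and strand setting are not given in the sources used here.

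Here edgeR 4.0.16 (R 4.3.3) with TMM factors and filterByExpr fitted all 9 libraries in 3 groups by the quasi-likelihood test, and p-values were adjusted by the Benjamini-Hochberg method over 14125 genes, with calls at 0.01. The fit was tested on simulated data. DESeq2 1.42.0 was an alternative. The 10 genes and the gene lists were chosen with earlier results of these data known. Genes named are the 10, their paralogs, list members called over 2-fold in both mutants, genes sharing 5% or more of a member's exonic length, and *Rec8* neighbours as counts, with exceptions stated. RPKM used GENCODE M21 exonic lengths. Standard errors and 95% intervals come from the fit. Promoters are RefSeq's, on GRCm38.p6. Summaries used Python 3.11.15, pandas 2.3.3, and scipy 1.17.1, and figures matplotlib 3.10.9. The alternatives were other scalings and filters, DESeq2, fits of only the groups compared, a replicate block, each library left out, a limit of 0.05, and shares of raw counts.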

Additional observations from a re-analysis of the deposited data

Results flagged for a closer look

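The difference between Ins/Del and Ins/Ins was itself past the threshold for 3 of the 10 genes, beside 10.8% of all tested genes. On the log2 scale it was -0.33 for *Sycp3*, which was lower in 3 of 3 Ins/Del libraries than in every Ins/Ins library, 0.30 for *Syce1*, and 0.48 for *Hormad2*, both higher in 3 of 3. Their adjusted p-values from edgeR's quasi-likelihood test were 4.01e-04, 0.00172, and 4.63e-04. Libraries separate in this way were common, with Ins/Del above Ins/Ins for 17.4% of all tested genes and below for 16.7%. *Hormad2* kept its call in all 15 alternative fits, with a highest adjusted p of 0.00657 (edgeR or DESeq2), whereas *Sycp3* and *Syce1* each lost theirs when certain single libraries were left out.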

How the results depend on the processing

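Over 15 alternative fits of 30 estimates for the 10 genes, 432 of 450 values kept their direction and side of the threshold, 10 were no longer past it, and 6 were newly past it. The other 2, neither of them called, changed sign without Ins/Ins replicate 1: the differences between the mutants went to -0.08 for *Sycp1* and 0.047 for *Sycp2*, within ranges of -0.08 to 0.129 and -0.11 to 0.047 over the libraries left out, and the cause was not tested. The 6 concern *Stag3* in Ins/Del against Ins/Ins, with differences of 0.124 to 0.138 and adjusted p down to 0.00238 (edgeR, only those groups fitted). The 10 concern *Sycp1* against the control and *Syce1* and *Sycp3* between the mutants, as given with each. The calls among the 10 genes numbered 8 to 9 in Ins/Ins, 8 to 10 in Ins/Del, and 1 to 4 between the mutants, where leaving out Ins/Del replicate 1 left 1, *Hormad2*. Over all genes, the calls between the mutants, 1527, went to 2682 at an adjusted p of 0.05, of which 1426 were higher and 1256 lower, and to between 988 and 1646 with 1 library left out, lowest without Ins/Ins replicate 1 (1014) and Ins/Del replicate 2 (988). Without division by length, the differences in meiotic share from the control were 8.46 and 9.94 percentage points for *Smc1b*, 29.4 and 32.0 for *Stag3*, and -1.76 and -1.75 for *Rec8*. Replicate numbers did not pair the samples: deviations of same-numbered libraries correlated between -0.028 and 0.056. With the replicate block, 8225 genes were called in Ins/Ins against 8252 without it, and no call among the 10 genes changed. With 3 libraries per line, an exact test of 1 value cannot go below 0.1, and counting precision is poorest for *Hormad2* and *Rec8*, the genes with the fewest reads in the control and in the mutants among those called.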

Other observations

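The genes whose log2 CPM followed *Stag3* most closely over the 9 libraries were the integrin gene *Itgb7* (Pearson r = 0.9989), the phospholipase gene *Pla1a* (0.9987), and *Nlrp4f* (0.9985), a gene known from oocytes, with log2 fold changes of 2.07, 2.02, and 4.33 in Ins/Ins and 2.23, 2.13, and 4.53 in Ins/Del. Those closest to *Sycp3* were the transcription factor genes *Patz1* (0.9963), *Glis3* (0.9955), and *Tfe3* (0.9955), with -0.49, -2.11, and -0.69 in Ins/Ins and -0.64, -2.73, and -0.95 in Ins/Del. These correlations run over 3 lines of 3 libraries each, which share their line and their sequencing, and are a description only.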
